A study of Rattus norvegicus with 12 samples.

Results

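The BCL2 family genes that decide whether a cell keeps its mitochondria intact or releases their contents and dies were followed in the rat prostate after partial bladder outlet obstruction, with and without the plant extract preparation Eviprostat. The 10 genes were Mcl1, Bcl2l1 and Bcl2, which protect cells, the pore-forming effectors Bax and Bak1, and the BH3-only genes Bad, Bid, Bcl2l11, Bbc3 and Bik, which promote death. They were found on the array by symbol, as every non-control probe whose annotated gene name, stripped of the endings for predicted or mapped genes, was one of the 10, without use of any measured value. The 10 are a small set among 15309 named genes measured. They had 17 of the 41012 probes, and all 17 were among the 36097 probes kept for testing, which needed a Cy5 signal well above background on 3 or more of the 12 arrays.

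Proteins of this family meet at the outer membrane of the mitochondrion. Bax and Bak1 open that membrane, the protective members hold them and the BH3-only proteins in check, and the BH3-only proteins carry stress signals that tip the balance. In the prostate the family is best known from the loss of epithelial cells after androgen withdrawal, and the messenger RNAs of Mcl1 and of the BH3-only genes are turned over or induced quickly under stress and inflammation.

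The study compared 4 groups of male rats aged 10 weeks, 3 arrays in each. Obstruction/Eviprostat rats had a rubber ring tied around the proximal urethra and received 18 mg/kg Eviprostat 2 times a day (36 mg/kg daily) for 5 days from the day after the operation. Obstruction/vehicle rats had the same operation and received 0.1% Tween 80 on that schedule. Sham/Eviprostat rats and sham/vehicle rats had a sham operation and received the drug or 0.1% Tween 80, with dosing begun 5 days after the operation, so time since surgery differs between operated and sham rats. Prostates were taken 2 h after the last dose. Eviprostat is a phytotherapeutic used for benign prostatic hyperplasia. The strain is not given in the sources used here.

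The labels call the 3 arrays of a group biological replicates, but the labelling protocol speaks of RNA from the pooled prostates of a group, so the p-values speak of array-to-array spread alone, which may be technical. On every array Cy5 carried the group's RNA and Cy3 carried sham/vehicle RNA, with no dye swap, so each value below is the log2 ratio of Cy5 to Cy3, and groups were set against the sham/vehicle arrays and not against a ratio of 0. Labelling began from 1500 ng of sham/vehicle RNA and from 300 ng in each other group. Replicate numbers 1, 2 and 3 are slides 1, 2 and 3, each with 1 array of every group at a fixed position, so group and position cannot be told apart. Slide 1, scanned on another day, was dimmer, with a median Cy5 intensity of 401 to 416 and 70.9% to 78.4% of spots well above background, against 576 to 676 and 78.7% to 88.4% on slides 2 and 3. Because of this, values within each slide and with the slide as a block are given beside the member results they change, and values with the block beside the pathway results they change. In whole tissue, fewer cells of a type and less RNA per cell cannot be told apart.

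The probes on which the results turn lie apart from each other in sequence: no pair of probes of 1 gene shared a run of more than 7 bases. The first 30 of the 60 bases of each are shown in lower case, 5′ to 3′, because the 3 Mcl1 probes and the 4 Bcl2l1 probes gave different answers.

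Mcl1 A_44_P280965: agtgcaataggtgactctaaaacctccagc
Mcl1 A_44_P101211: ccatggaggacttctagaatgaatgaaaag
Mcl1 A_44_P384618: agagaagctaccaaccatttgtggcctata
Bcl2l1 A_44_P254238: ctctctgctgtacatatctgagactagttt
Bcl2l1 A_42_P623909: attggtgagtcggattgcaagttggatggc
Bcl2l1 A_44_P548065: atgtctcagagcaaccgggagctggtggtt
Bcl2l1 A_43_P12577: acagactgttgtgactcttaaagataaagc

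By the array design's annotation, on build rn3, the first 2 Mcl1 probes lie 164 bases apart on the minus strand of the unplaced sequence 2_random, at positions 2891685 to 2891744 (A_44_P280965) and 2891461 to 2891520 (A_44_P101211), and are assigned to the Mcl1 transcript. The third, A_44_P384618, is assigned to a predicted transcript on chromosome 3, at 140829989 to 140830218, so it lies on another chromosome than the other 2. Of the Bcl2l1 probes, A_44_P254238 lies on chromosome 3 at 143034965 to 143035024, 47701 bases from A_43_P12577 at 143082726 to 143082785, and is annotated to another transcript record than the other 3. The BH3-only probe of Bbc3 and the effector probe of Bax, for which the design gives no coordinates, and those of Bid and Bcl2l11 are shown because their genes changed.

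Bbc3 A_44_P437945: cagcctgtaaaatactgtacatgcactgct
Bax A_43_P11800: tggagatgaactggacaataatatggagct
Bid A_44_P550497: gcacgaccgtgaactttattaaccagaacc
Bcl2l11 A_44_P508055: tttgcaaacgattaccgagaggcggaagac

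The first comparison, obstruction/vehicle against sham/vehicle, asks what obstruction changed in untreated rats. Protective and death-promoting members rose together. Mcl1 rose 3.96-fold and Bcl2l1 rose 1.69-fold by their brightest probes, and on the death-promoting side Bbc3 rose 1.85-fold, Bcl2l11 1.44-fold, Bid 1.41-fold and Bax 1.25-fold. Bcl2, Bad, Bak1 and Bik did not pass the test. In all, 8 of the 17 probes, from 6 genes, were higher and 0 were lower (limma, Benjamini-Hochberg adjusted over all 36097 probes), where 12.8% of all probes were called higher and 8.57% lower. With the slide as a block, 10 of the 17 were higher and 0 lower, where 20.7% of all probes were called higher and 18.3% lower. Without slide 1, the dimmer one, 10 were higher and 1, Bik, was lower (-0.25, adjusted p = 0.00709, limma), where 25.4% of all probes were called higher and 20.2% lower. The median difference over the 17 probes was 0.32 on the log2 scale, beside -0.011 over all probes.

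**Figure D1:**
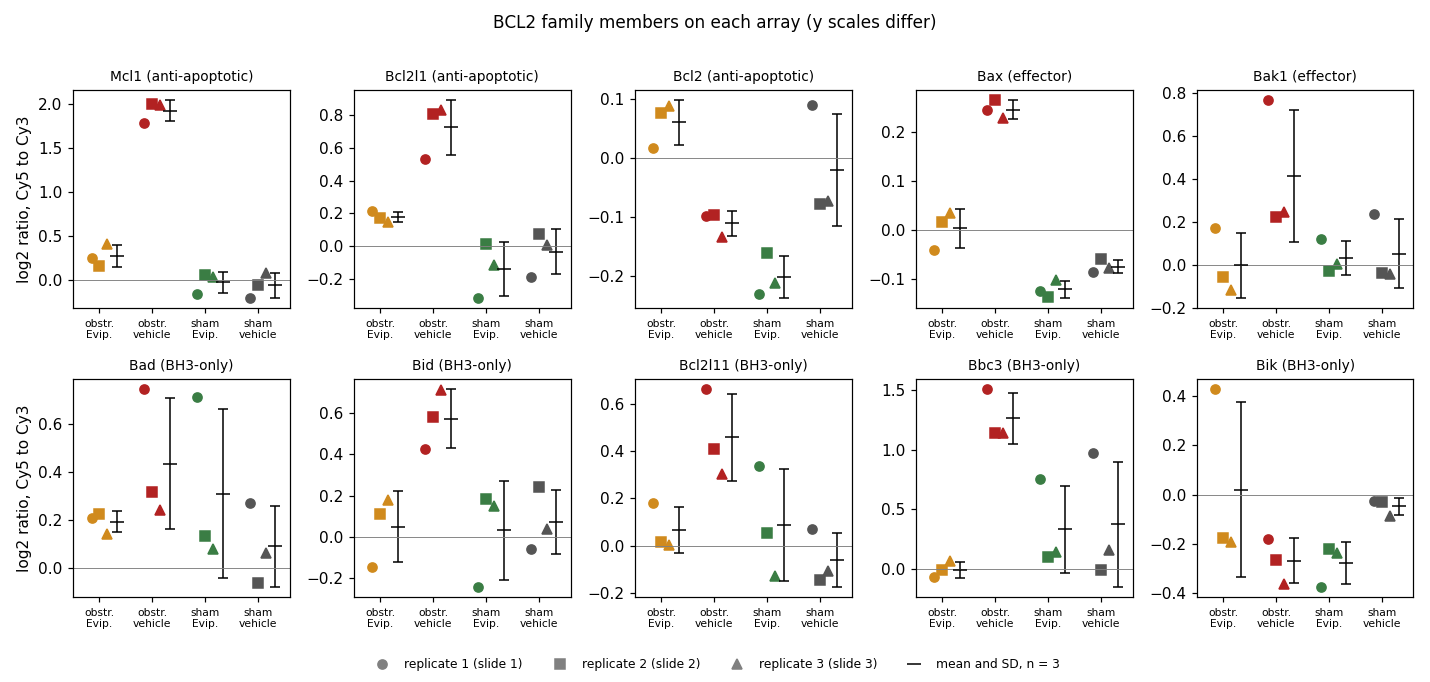
Log2 ratio of Cy5 to Cy3 of each member on each array, by its brightest probe, with groups in columns and replicates (slides) as symbols; the bar beside the points is the mean and SD of the 3 arrays, and y scales differ between panels. Mcl1, Bcl2l1, Bax, Bid and Bbc3 are higher on all 3 obstruction/vehicle arrays than on any other array, and slide 1 stands above the other slides for Bbc3 and Bak1 in several groups.

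Mcl1 is a short-lived guard of the mitochondrial membrane that holds Bak1 and BH3-only proteins. Its probe A_44_P280965 had log2 ratios of 1.79, 2.00 and 1.99 on the obstruction/vehicle arrays of slides 1, 2 and 3, against -0.20, -0.056 and 0.085 on the sham/vehicle arrays. The groups did not overlap, and the lowest obstruction/vehicle array lay far above the highest sham/vehicle array. The difference was 1.99 ± 0.11 (log2, SE; adjusted p = 5.6e-08, limma), and within slides it was 1.99, 2.06 and 1.90. The second probe, A_44_P101211, read 1.20, 1.52 and 1.67 on obstruction/vehicle arrays, against -0.35, -0.17 and -0.011 on sham/vehicle arrays. It differed by 1.64 ± 0.13 (adjusted p = 1.44e-06, limma), or 3.12-fold. Of all kept probes, 1.19% had a larger difference than the first Mcl1 probe and 1.8% a larger one than the second.

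The probe on chromosome 3 that also carries the Mcl1 name gave no such difference. A_44_P384618 read -0.14 to 0.41 on obstruction/vehicle arrays and 0.098 to 0.19 on sham/vehicle arrays, and its difference was -0.012 (adjusted p = 0.979, limma). It was well above background on 0 of the 3 obstruction/vehicle arrays and on 3 of the 3 sham/vehicle arrays, so its level under obstruction is only bounded. With the scanner software's ratios it was called lower (-1.09, adjusted p = 0.0286, limma). All 3 probes are counted under the name the array gives them.

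**Figure D2:**
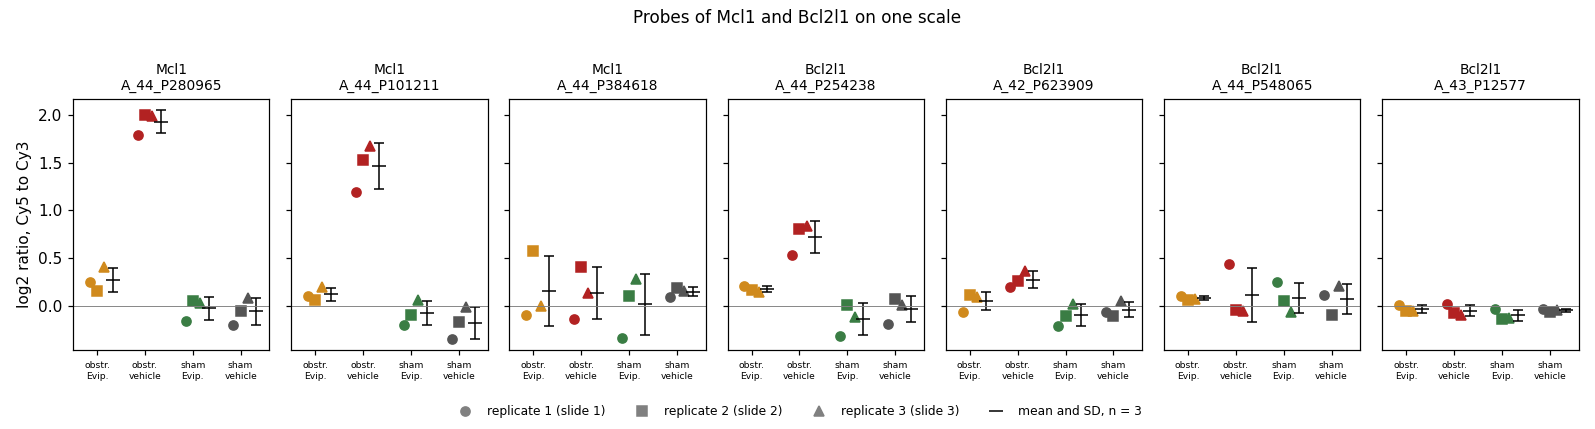
Log2 ratios of the 3 Mcl1 and 4 Bcl2l1 probes on each array, all on 1 scale, with groups in columns, replicates (slides) as symbols and the mean and SD of 3 arrays as bars. The first 2 Mcl1 probes are high on the obstruction/vehicle arrays, between 1.20 and 2.00, the third is not, and the 4 Bcl2l1 probes differ from each other in the size of the same contrast.

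Bcl2l1, which encodes the long-lived protective protein BCL-xL and by splicing also a short death-promoting form, differed by probe. Probe A_44_P254238 read 0.53, 0.81 and 0.83 on obstruction/vehicle arrays, against -0.19, 0.076 and 0.0080 on sham/vehicle arrays, with no overlap. The difference was 0.76 ± 0.12 (adjusted p = 0.000374, limma), and 0.72, 0.73 and 0.83 within slides. Probe A_42_P623909 moved less: it read 0.20, 0.26 and 0.37 on obstruction/vehicle arrays, against -0.067, -0.10 and 0.052 on sham/vehicle arrays. Its difference was 0.31 ± 0.095 (adjusted p = 0.033, limma). That call was lost without sham/vehicle replicate 1 or 2, without obstruction/vehicle replicate 2 or 3 and with only these 2 groups in the model, and the largest adjusted p over all alternatives was 0.181. The remaining probes differed by 0.040 (A_44_P548065, adjusted p = 0.891) and -0.0041 (A_43_P12577, adjusted p = 0.981, limma), and the last was well above background on 2 of 3 arrays of each of these 2 groups. None of the 4 probes was matched to a splice form here.

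Bcl2, the founding protective member, gave no call. Its brighter probe A_44_P360756 read -0.098, -0.097 and -0.13 on obstruction/vehicle arrays, against 0.089, -0.077 and -0.072 on sham/vehicle arrays. The obstruction/vehicle arrays were all lower than the sham/vehicle arrays, by 0.090 on average (95% interval of the difference -0.26 to 0.084; adjusted p = 0.511, limma). With the scanner software's own ratios the difference was -0.29 (adjusted p = 0.0248, limma), which passes the threshold. The other probe, A_44_P280776, averaged -0.16 ± 0.12 on obstruction/vehicle arrays and -0.018 ± 0.18 on sham/vehicle arrays (SD, n = 3 each; adjusted p = 0.459, limma), with overlap.

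Among the effectors, Bax varied little between arrays of a group. It read 0.24, 0.26 and 0.23 on obstruction/vehicle arrays, against -0.087, -0.060 and -0.078 on sham/vehicle arrays, and the groups did not overlap. The difference of 0.32 ± 0.073 (adjusted p = 0.00673, limma) was 0.33, 0.32 and 0.31 within slides. With the scanner software's ratios it was 0.16 (adjusted p = 0.0723, limma), short of the threshold. The Bak1 probe read 0.77, 0.22 and 0.24 on obstruction/vehicle arrays, against 0.24, -0.041 and -0.043 on sham/vehicle arrays. Slide 1 was the high one in both groups, the groups overlapped through sham/vehicle replicate 1, and the difference of 0.36 ± 0.15 did not pass (adjusted p = 0.107, limma). With the slide as a block it did (adjusted p = 0.00322), with within-slide differences of 0.53, 0.26 and 0.29.

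Bbc3, which encodes PUMA, a BH3-only protein induced by p53 and by other stress pathways, had the largest change among the death-promoting members. It read 1.51, 1.14 and 1.14 on obstruction/vehicle arrays, against 0.97, -0.0098 and 0.16 on sham/vehicle arrays. All obstruction/vehicle arrays were higher, but sham/vehicle replicate 1 stood well above the other 2 of its group. The difference was 0.89 ± 0.23 (adjusted p = 0.0163, limma; 0.000157 with the slide as a block), and within slides 0.54, 1.15 and 0.98. Over the alternatives it ranged from 0.70 to 1.19, and the call was lost without sham/vehicle replicate 2 or 3 or obstruction/vehicle replicate 1.

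Bcl2l11 encodes BIM, a BH3-only activator controlled by growth factor withdrawal. It read 0.66, 0.41 and 0.31 on obstruction/vehicle arrays, against 0.068, -0.15 and -0.11 on sham/vehicle arrays, and differed by 0.52 ± 0.13 (adjusted p = 0.0127, limma). The groups did not overlap, although 1 of the 3 sham/vehicle arrays was not well above background, and the call was lost without sham/vehicle replicate 2. Bid links death receptors to mitochondria once cut by caspase-8. It read 0.43, 0.58 and 0.71 on obstruction/vehicle arrays, against -0.059, 0.24 and 0.039 on sham/vehicle arrays. Again the groups did not overlap, and the difference was 0.50 ± 0.14 (adjusted p = 0.0215, limma). Its probe is dim, with 2 of 3 sham/vehicle arrays well above background, and the call was lost without sham/vehicle replicate 1 or 3 or without obstruction/vehicle replicate 2 or 3. When the background was fitted on all spots, as explained with the processing, Bid, Bcl2l11 and Bcl2l1 A_42_P623909 lost their calls, at adjusted p of 0.276, 0.109 and 0.181 (limma), and 5 of 17 probes were higher. Leaving out sham/vehicle replicate 2 also left 5 of 17 probes higher. With median centring in place of loess 4 were higher, both Mcl1 probes of the Mcl1 transcript, Bbc3 and Bid, while Bcl2l1 A_44_P254238 (0.84, adjusted p = 0.415), A_42_P623909 (0.44, 0.146), Bcl2l11 (0.62, 0.404) and Bax (0.42, 0.756, limma) lost their calls at differences no smaller than before.

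The sensitizers Bad and Bik gave no call. Bad, which growth factor signalling silences by phosphorylation, read 0.75, 0.32 and 0.24 on obstruction/vehicle arrays, against 0.27, -0.064 and 0.062 on sham/vehicle arrays, by probe A_44_P991565. The difference was 0.34 (adjusted p = 0.201, limma), with slide 1 high in both groups, and with the slide as a block it passed (adjusted p = 0.0165). The other Bad probe, A_44_P199624, differed by 0.047 (adjusted p = 0.839, limma). Bik read -0.18, -0.26 and -0.36 on obstruction/vehicle arrays, against -0.027, -0.030 and -0.088 on sham/vehicle arrays. All 3 obstruction/vehicle arrays were lower, by 0.22 on average (95% interval -0.53 to 0.091; adjusted p = 0.339, limma), and with the scanner software's ratios the difference was -0.42 (adjusted p = 0.00861, limma).

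By role, 4 of the 9 probes of protective genes were higher, with a median difference of 0.040, 1 of the 2 effector probes (median 0.34) and 3 of the 6 BH3-only probes (median 0.42). As a description without a test, the log2 ratio of Bax minus that of Bcl2 was 0.36 ± 0.011 on obstruction/vehicle arrays and -0.055 ± 0.11 on sham/vehicle arrays (SD, n = 3 each). The log2 ratio of Mcl1 minus that of Bax was 1.68 ± 0.12 on obstruction/vehicle arrays and 0.017 ± 0.14 on sham/vehicle arrays. On obstruction/Eviprostat arrays these 2 values were -0.057 ± 0.0036 and 0.27 ± 0.12, and on sham/Eviprostat arrays 0.079 ± 0.048 and 0.098 ± 0.12. Both were highest on the obstruction/vehicle arrays, with no overlap with any other group.

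Markers of other cell types moved in the same contrast. Of the macrophage and monocyte markers 6 of 7 were higher, with a summed Cy5 intensity of 56570 to 75116 on obstruction/vehicle arrays, against 8957 to 11941 on sham/vehicle arrays. All 6 neutrophil markers were higher, with sums of 56162 to 59300 on obstruction/vehicle arrays, against 807 to 920 on sham/vehicle arrays. Fibroblast (5 of 5), smooth muscle (4 of 4), urothelium (3 of 3) and seminal vesicle (4 of 5) markers were higher, and skeletal muscle markers lower (4 of 5). Of the lymphocyte markers 1 of 6 was higher, and of the 4 endothelium markers 2 were higher and 1 lower. Of the 8 prostate epithelium markers 0 were higher and 3 lower, among the lower ones Pbsn (-1.26, adjusted p = 1.11e-05, limma). Krt8 (0.38), Krt18 (-0.14), Tgm4 (-0.0036), Cdh1 (0.034) and Epcam (0.023) gave no call by their brightest probe (limma). A second Krt18 probe was called lower (-0.49, adjusted p = 0.0139, limma). Second probes of Csf1r (-0.24), Tyrobp (0.52), Myh11 (0.21), Vwf (0.019) and Cdh5 (0.052) gave no call. That of Ptprc, the macrophage marker without a call by its brightest probe, was higher (0.80, adjusted p = 0.000411, limma). The summed prostate epithelium level was 251807 and 262206 on obstruction/vehicle replicates 3 and 2, against 317674 to 373264 on sham/vehicle arrays; on obstruction/vehicle replicate 1 Pbsn, which encodes the secretory protein probasin, was left out because the scanner software marked its Cy5 spot as not uniform, so no sum is given there and Pbsn was tested without that array. Their part in the results of the members was not tested.

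The second comparison, obstruction/Eviprostat against obstruction/vehicle, asks what the drug changed in obstructed rats; it shares the obstruction/vehicle arrays with the first. Mcl1 fell 3.15-fold, Bbc3 2.40-fold, Bcl2l1 1.46-fold, Bid 1.44-fold and Bax 1.18-fold. In all, 6 of the 17 probes, from 5 genes, were lower and 0 higher (limma, adjusted over all probes), where 11.7% of all probes were called lower and 7.2% higher. With the slide as a block 9 were lower and 0 higher, where 19.6% of all probes were called lower and 16.9% higher. Without slide 1, 10 were lower and 1, Bcl2 A_44_P360756, was higher (0.20, adjusted p = 0.0181, limma), where 24.1% of all probes were called lower and 18.5% higher. The median over the 17 probes was -0.24, beside 0.0078 over all probes.

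Both Mcl1 probes of the Mcl1 transcript were lower on every obstruction/Eviprostat array. A_44_P280965 read 0.25, 0.16 and 0.41 on obstruction/Eviprostat arrays, against 1.79, 2.00 and 1.99 on obstruction/vehicle arrays, a difference of -1.65 ± 0.11 (adjusted p = 3.7e-07, limma). A_44_P101211 read 0.11, 0.066 and 0.20 on obstruction/Eviprostat arrays, against 1.20, 1.52 and 1.67 on obstruction/vehicle arrays, and differed by -1.34 ± 0.13 (adjusted p = 1.04e-05, limma). With median centring in place of loess these differences were -1.65 and -1.35, but neither passed (adjusted p = 0.0581 and 0.136, limma). The chromosome 3 probe differed by 0.025 (adjusted p = 0.959, limma).

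The first Bcl2l1 probe, A_44_P254238, read 0.21, 0.17 and 0.15 on obstruction/Eviprostat arrays, against 0.53, 0.81 and 0.83 on obstruction/vehicle arrays. It was lower on all 3, by 0.55 ± 0.12 (adjusted p = 0.0047, limma), and the within-slide differences were -0.32, -0.64 and -0.68. With median centring it did not pass (-0.55, adjusted p = 0.749, limma). A_42_P623909 read -0.060, 0.11 and 0.096 on obstruction/Eviprostat arrays, against 0.20, 0.26 and 0.37 on obstruction/vehicle arrays. Its difference of -0.23 did not pass (adjusted p = 0.13, limma). The difference passed with the slide as a block (adjusted p = 0.0231) and without slide 1 (0.0479, limma). It also passed with the scanner software's ratios (adjusted p = 0.0292) and with Cy5 alone (0.0237, limma). Bcl2 was the protective gene whose values ran the other way: A_44_P360756 read 0.018, 0.076 and 0.088 on obstruction/Eviprostat arrays, against -0.098, -0.097 and -0.13 on obstruction/vehicle arrays. These arrays did not overlap, but the difference of 0.17 ± 0.080 did not pass (adjusted p = 0.18, limma). It passed with the scanner software's ratios (0.41, adjusted p = 0.00393) and without slide 1 (0.20, adjusted p = 0.0181, limma). The other Bcl2 probe differed by 0.11 (adjusted p = 0.578, limma).

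Bbc3 read -0.069, -0.010 and 0.064 on obstruction/Eviprostat arrays, against 1.51, 1.14 and 1.14 on obstruction/vehicle arrays. The difference was -1.27 ± 0.23 (adjusted p = 0.0020, limma), and -1.58, -1.15 and -1.07 within slides, and it passed in all 22 alternatives. Bid read -0.14, 0.11 and 0.18 on obstruction/Eviprostat arrays, against 0.43, 0.58 and 0.71 on obstruction/vehicle arrays, and differed by -0.52 ± 0.14 (adjusted p = 0.0187, limma). The groups did not overlap, with 2 of 3 obstruction/Eviprostat arrays well above background. This call did not hold when obstruction/vehicle replicate 2 or 3 or obstruction/Eviprostat replicate 1 was left out, with Cy5 alone and with the background fitted on all spots (adjusted p = 0.281). Bcl2l11 read 0.18, 0.014 and 0.0036 on obstruction/Eviprostat arrays, against 0.66, 0.41 and 0.31 on obstruction/vehicle arrays. Its difference of -0.39 ± 0.13 did not pass (adjusted p = 0.057, limma). The difference passed with the block (adjusted p = 0.000931), with Cy5 alone (0.0425) and without slide 1 (0.00408, limma). It also passed without sham/Eviprostat replicate 1 or 3.

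Bax read -0.041, 0.015 and 0.035 on obstruction/Eviprostat arrays, against 0.24, 0.26 and 0.23 on obstruction/vehicle arrays, with no overlap. The difference of -0.24 ± 0.073 passed narrowly (adjusted p = 0.0348, limma), and it was lost in 14 of 22 alternatives. Among these were 9 of the 12 that leave out 1 array: sham/vehicle replicate 2 or 3, sham/Eviprostat replicate 2 or 3, obstruction/vehicle replicate 2 or 3, or any obstruction/Eviprostat replicate. Bak1 read 0.17, -0.059 and -0.12 on obstruction/Eviprostat arrays, against 0.77, 0.22 and 0.24 on obstruction/vehicle arrays. Its difference of -0.42 ± 0.15 did not pass (adjusted p = 0.0702, limma). The difference passed with the block (adjusted p = 0.00122), without slide 1 (0.00132) and with the scanner software's ratios (0.0481, limma). Bik read 0.43, -0.18 and -0.19 on obstruction/Eviprostat arrays, against -0.18, -0.26 and -0.36 on obstruction/vehicle arrays, with slide 1 apart from the other 2 (difference 0.29, adjusted p = 0.209, limma). With the scanner software's ratios Bik was called higher (0.36, adjusted p = 0.0203, limma). The Bad probes differed by -0.24 and -0.057 (adjusted p = 0.409 and 0.814, limma).

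**Figure D3:**
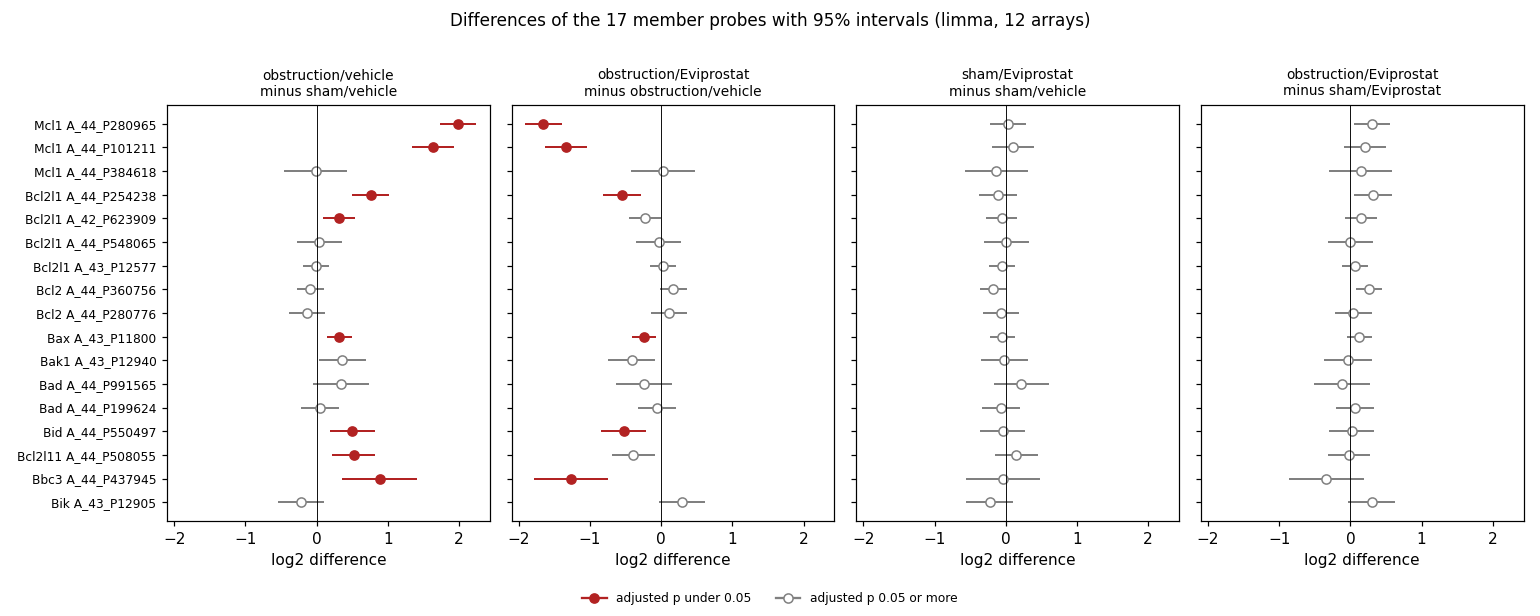
Log2 differences of the 17 member probes in 4 comparisons, with 95% intervals from limma over 12 arrays; filled points have an adjusted p under 0.05. There are 8 filled points, all above 0, for obstruction/vehicle minus sham/vehicle, 6, all below 0, for obstruction/Eviprostat minus obstruction/vehicle, and 0 in the other 2 panels.

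In the same contrast 6 of 7 macrophage and 5 of 6 neutrophil markers were lower. The macrophage sum was 11738 to 14196 on obstruction/Eviprostat arrays, against 56570 to 75116 on obstruction/vehicle arrays, and the neutrophil sum 903 to 966 on obstruction/Eviprostat arrays, against 56162 to 59300 on obstruction/vehicle arrays. All fibroblast, smooth muscle and urothelium markers were lower too. Of the 4 endothelium markers 1 was higher and 2 lower, and 0 of 6 lymphocyte markers were called. Second probes of Csf1r (0.082), Tyrobp (-0.54), Vwf (-0.0017) and Cdh5 (-0.0070) gave no call. That of Ptprc was lower (-0.77, adjusted p = 0.000643, limma). Of the seminal vesicle markers 4 of 5 were lower: Svs5 at -6.41, Svs3a at -5.94, Svs4 at -5.10 and Svs6 at -4.39 (log2). Of the skeletal muscle markers 3 of 5 were higher, Pvalb at 1.86, Ckm at 0.91 and Tnnt3 at 0.59. The summed prostate epithelium level was 373506 to 410837 on obstruction/Eviprostat arrays, against 251807 and 262206 on obstruction/vehicle replicates 3 and 2. By brightest probe 2 of 8 prostate epithelium markers were higher, among them Pbsn at 1.31 (adjusted p = 9.86e-06, limma). The 1 lower was Cdh1 at -0.43 (adjusted p = 0.0134, limma), and a second Krt18 probe was higher (0.40, adjusted p = 0.0412, limma). The other markers of this list gave no call. Their part in the members' differences was not tested.

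In sham rats the drug left no member past the threshold. Of the 17 probes 0 were higher and 0 lower between sham/Eviprostat and sham/vehicle (limma; 1 at an unadjusted p under 0.05), where 1.3% of all probes were called higher and 0.92% lower. With the slide as a block the counts were again 0 and 0, where 5.73% of all probes were called higher and 4.92% lower. Without slide 1 they were 0 and 0 too, where 9.34% were called higher and 7.15% lower. The probe with the smallest p was Bcl2 A_44_P360756, which read -0.23, -0.16 and -0.21 on sham/Eviprostat arrays, against 0.089, -0.077 and -0.072 on sham/vehicle arrays. It was lower on all 3, by 0.18 on average (95% interval -0.35 to -0.0068; unadjusted p = 0.0429, adjusted p = 0.416, limma). Mcl1 A_44_P280965 read -0.16, 0.057 and 0.033 on sham/Eviprostat arrays, within the range of the sham/vehicle arrays, and its interval ran from -0.20 to 0.27. Bbc3 read 0.75, 0.10 and 0.14 on sham/Eviprostat arrays, against 0.97, -0.0098 and 0.16 on sham/vehicle arrays, so slide 1 was the high one in both sham groups. In this contrast seminal vesicle (4 of 5), skeletal muscle (4 of 5), smooth muscle (2 of 4) and fibroblast (2 of 5) markers were higher. Of the macrophage markers 0 of 7 and of the neutrophil markers 0 of 6 were called.

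Obstruction under the drug, obstruction/Eviprostat against sham/Eviprostat, gave no member call either. Of the 17 probes 0 were higher and 0 lower (limma; 3 at an unadjusted p under 0.05), where 1.4% of all probes were called higher and 1.77% lower. With the slide as a block, 3 were higher and 0 lower, where 6.93% of all probes were called higher and 6.89% lower. Without slide 1, 2 were higher, where 9.82% of all probes were called higher and 11.2% lower. The 3 called with the block were protective genes. Bcl2 A_44_P360756 read 0.018, 0.076 and 0.088 on obstruction/Eviprostat arrays, against -0.23, -0.16 and -0.21 on sham/Eviprostat arrays, higher by 0.26 (adjusted p = 0.124, and 0.0309 with the block, limma). Bcl2l1 A_44_P254238 was higher by 0.32 (adjusted p = 0.222, and 0.021 with the block) and Mcl1 A_44_P280965 by 0.30 (adjusted p = 0.235, and 0.0227 with the block, limma). All 3 were higher on every obstruction/Eviprostat array than on any sham/Eviprostat array. The same held for the death-promoting Bax and Bik and for Mcl1 A_44_P101211, while Bbc3 was lower without overlap. How many of all probes separate these groups was not counted, so no result about the members is drawn from this. In this contrast 4 of 5 seminal vesicle markers were lower, among them Svs5 at -5.46 and Svs3a at -5.21, as were 4 of 5 skeletal muscle markers, among them Myh4 at -2.81 and Pvalb at -2.47, and the urothelial Upk1b and Upk3a. Of the macrophage markers 1 of 7, Lyz2, was higher (1.04, adjusted p = 0.000259, limma), and 0 of 6 neutrophil markers were called. Their part in the members' differences was not tested.

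Whether the drug acted differently in obstructed and in sham rats was tested as the difference of the 2 drug effects. These passed: both Mcl1 probes on 2_random, at -1.69 ± 0.16 (adjusted p = 1.01e-05) and -1.44 ± 0.18 (adjusted p = 0.000144), and Bbc3 at -1.22 ± 0.33 (adjusted p = 0.0243, limma). This is 0 of 17 probes higher and 3 lower, where 6.11% of all probes were called higher and 9.72% lower. The Bbc3 call was lost without sham/vehicle replicate 2 or 3, obstruction/vehicle replicate 1 or obstruction/Eviprostat replicate 2, with the background fitted on all spots (adjusted p = 0.0606) and with Cy5 alone (adjusted p = 0.0618, limma). The chromosome 3 probe with the Mcl1 name, at 0.16, was called with the scanner software's ratios (1.48, adjusted p = 0.0423, limma). Leaving out sham/Eviprostat replicate 1 raised the count to 5. With the slide as a block, 2 were higher and 8 lower, where 14.7% of all probes were called higher and 17.5% lower, and without slide 1, 2 were higher and 7 lower, where 16.6% and 22.3% were called. With median centring the Mcl1 calls were lost (adjusted p = 0.134 and 0.221, limma). With the block, the 2 higher ones were Bcl2 A_44_P360756 at 0.35 (adjusted p = 0.0189) and Bik at 0.52 (adjusted p = 0.0283), and the 5 further lower ones were Bcl2l11 at -0.54 (0.00133), Bid at -0.48 (0.00487), Bad A_44_P991565 at -0.46 (0.0266), Bcl2l1 A_44_P254238 at -0.44 (0.00995) and Bak1 at -0.40 (0.0196, all limma adjusted p with the block).

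Ordered by mean log2 ratio of the first Mcl1 probe, the groups ran from obstruction/vehicle at 1.93 ± 0.12 over obstruction/Eviprostat at 0.27 ± 0.13 and sham/Eviprostat at -0.023 ± 0.12 to sham/vehicle at -0.058 ± 0.14 (SD, n = 3 each). Only the step below obstruction/vehicle exceeded the spread in limma's test without the block. Bbc3 was ordered otherwise, with obstruction/vehicle at 1.26 ± 0.21, sham/vehicle at 0.37 ± 0.52, sham/Eviprostat at 0.33 ± 0.36 and obstruction/Eviprostat at -0.0049 ± 0.067. None of the tests between neighbours among its lower 3 groups passed.

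The genes closest to each changed member over the 12 arrays were named by Pearson's r of the log2 ratios among 15268 genes, as a description with no p, since all arrays share the 4 groups and 3 slides. Mcl1 ran closest to Junb (r = 0.997), Spp1 (0.996) and Pf4 (0.995), and Bbc3 to Lcp1 (0.992), Cd93 (0.988) and Ckmt1 (0.982). The values of Bcl2l1 followed the basal keratin gene Krt5 (0.988), then Fxyd3 (0.982) and Klf6 (0.981). Bax was closest to the lysozyme gene Lyz2 (0.990), Ms4a6a (0.986) and S100a6 (0.986). The dimmer probes had lower best values, with Slco2b1 (0.980), Kdm3a (0.973) and Gimap5 (0.972) for Bid and Or10w1 (0.972), Syngr1 (0.968) and Plekho1 (0.960) for Bcl2l11.

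RefSeq's promoter table, on build GRCr8, held 10 entries for 7 of the members and none for the other 3, Bax, Bbc3 and Bik. The 250 bases before the start of Mcl1, the member with the largest change, are shown at chr2:185907918-185908167, plus strand, with a match to GGGCGG on the opposite strand in capitals, 91 bases before the start. GGGCGG, read on both strands, is bound by SP1-family factors.

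Mcl1 upstream: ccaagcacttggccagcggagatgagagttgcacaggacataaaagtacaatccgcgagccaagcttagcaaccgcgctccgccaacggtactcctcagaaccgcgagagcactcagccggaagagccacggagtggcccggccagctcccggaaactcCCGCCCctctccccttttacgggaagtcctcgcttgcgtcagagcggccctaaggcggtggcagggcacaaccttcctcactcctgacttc

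This stretch is 62% G and C. A GGGCGG match is common, held by 30.5% of the 33469 promoters of the same length, and Bcl2l11, Bid and Bak1 hold it too. The STAT motif TTCNNNGAA, held by 7.67% of promoters, matched in Bad and in 2 of the 4 Bcl2l1 entries and in no other entry of the members. The TATAAA motif matched in Bcl2 (12.9% of promoters hold it), and TGACGTCA (1.59%) and CACGTG (5.59%) matched in no entry. All motifs were searched on both strands, and a match is a description of letters only.

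The wider apoptosis pathway was taken from a list of 65 further genes, of which 60 were on the array and 59 were measured. In obstruction/vehicle against sham/vehicle, 18 rose and 6 fell (limma, gene by brightest probe), where 15.6% of 15309 genes were called higher and 8.87% lower. With the block 21 rose and 12 fell, where 24.1% of genes were called higher and 18.6% lower. In obstruction/Eviprostat against obstruction/vehicle, 4 rose and 17 fell, where 7.34% of genes were called higher and 14.3% lower; with the block 9 rose and 25 fell, where 17.5% and 23.1% were called. The list's median was 0.15 in the first of these and -0.16 in the second. For the difference of the 2 drug effects 1 gene was higher and 12 lower, where 5.51% of genes were called higher and 12.4% lower; with the block 6 were higher and 22 lower, where 14.2% and 21.4% were called. The counts of the shorter lists below stand beside these same shares.

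Of the other BCL2 family genes, 14 of 17 were measured, and 4 rose and 1 fell with obstruction, or 6 and 4 with the block. Bcl2a1, a protective member induced by NF-kappa-B in leukocytes, changed more than any of the 10 members. It read 0.0021, 0.085 and 0.031 on obstruction/Eviprostat arrays, 2.60, 2.94 and 3.05 on obstruction/vehicle arrays and -0.19, 0.17 and 0.15 on sham/vehicle arrays. It rose by 2.82 ± 0.15 with obstruction (adjusted p = 4.61e-08) and was lower by 2.83 ± 0.15 under the drug (adjusted p = 5.94e-08, limma), and 1 sham/vehicle array was not well above background. Bnip2 rose by 1.45 (adjusted p = 1.46e-06) and Bnip3, a mitophagy receptor induced by hypoxia, by 1.09 (adjusted p = 0.000739, limma). Under the drug they fell by 0.89 (adjusted p = 0.000125) and 0.64 (adjusted p = 0.0256, limma). The Bnip3 call under the drug was lost in 7 of 22 alternatives, among them leaving out obstruction/vehicle replicate 2 or 3 or any obstruction/Eviprostat replicate.

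The BH3-only gene Hrk rose by 0.38 (adjusted p = 0.0213, limma) by its brighter probe, while its other probe differed by 0.13 (adjusted p = 0.412). The call of the brighter Hrk probe was lost in 7 of 21 alternatives. Among these were leaving out sham/vehicle replicate 1 or 3 or obstruction/vehicle replicate 2 or 3. Bcl2l15 ran the other way: it fell by 0.59 with obstruction (adjusted p = 0.00346) and was higher by 0.97 under the drug (adjusted p = 9.41e-05, limma). The rest gave no call in either contrast by their brightest probe: Bnip3l (0.45 with obstruction, adjusted p = 0.0754), Bmf (0.25), Bcl2l13 (0.20), Bcl2l12 (-0.034), Bok (-0.074), Bcl2l10 (-0.17), Bcl2l2 (-0.24), Bcl2l14 (-0.43) and Bnip1 (-0.54, adjusted p = 0.136, limma). Bnip3l (adjusted p = 0.000461), Bmf (0.0389), Bcl2l14 (0.000576), Bcl2l2 (0.0259) and Bnip1 (0.0131, limma) passed with obstruction once the slide was a block. Under the drug Bnip3l (-0.47, adjusted p = 0.000347), Hrk (-0.22, 0.0452), Bcl2l14 (0.36, 0.00235) and Bcl2l2 (0.24, 0.0266, limma) passed with the block. The other probe of Bcl2l2, a protective member, differed by -0.48 with obstruction (adjusted p = 0.0107) and by 0.65 under the drug (adjusted p = 0.0018, limma).

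**Figure D4:**
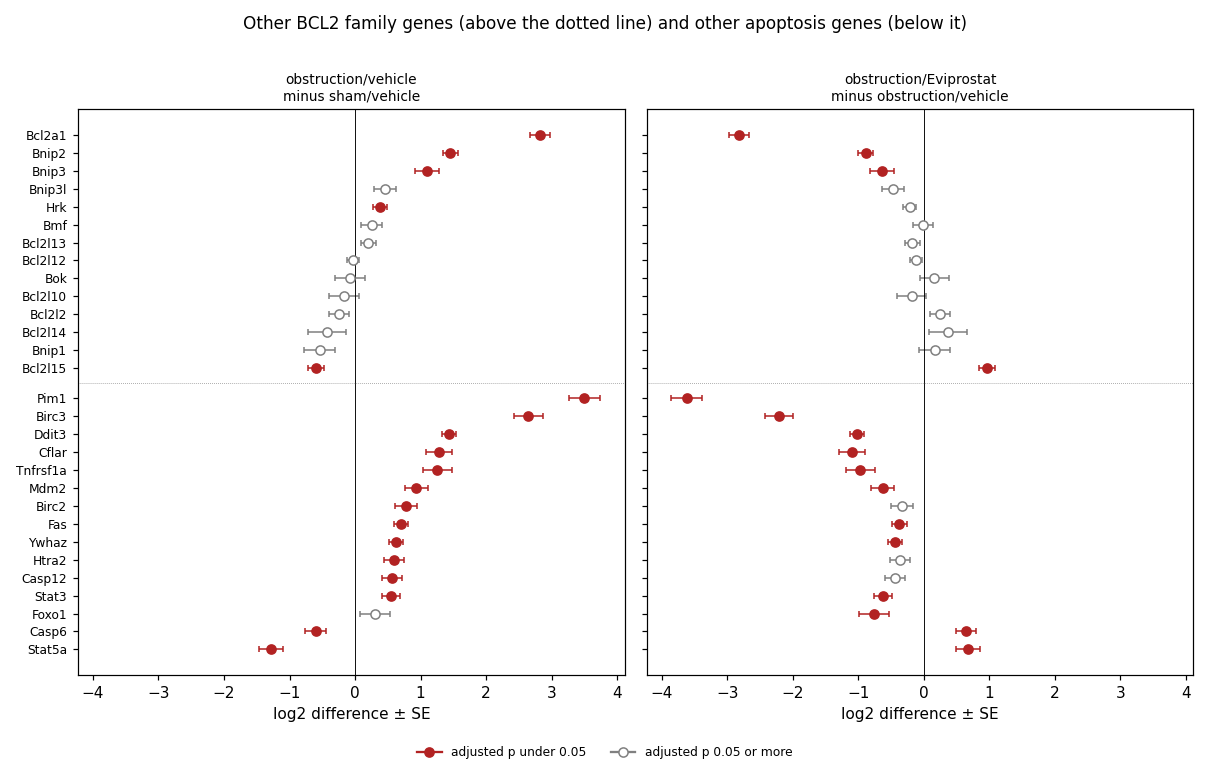
Log2 differences with their SE of the 14 other BCL2 family genes (above the dotted line) and 15 further apoptosis genes (below it), for obstruction/vehicle minus sham/vehicle and obstruction/Eviprostat minus obstruction/vehicle; filled points have an adjusted p under 0.05. Pim1 and Bcl2a1 reach 3.50 and 2.82 in the first contrast and -3.61 and -2.83 in the second, while Bcl2l15, Casp6 and Stat5a lie on the opposite side.

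Among upstream regulators 6 of 14 rose and 1 fell with obstruction, and 1 rose and 8 fell under the drug. With the block these counts were 7 and 1, and 1 and 9. Pim1, a kinase that phosphorylates Bad, rose by 3.50 (adjusted p = 3.27e-07) and under the drug fell by 3.61 (adjusted p = 3.1e-07, limma). Ddit3, the stress factor CHOP that induces Bcl2l11 and Bbc3, rose by 1.43 (adjusted p = 6.84e-07) and under the drug fell by 1.02 (adjusted p = 1.72e-05, limma). Mdm2, which restrains p53, rose by 0.93 by its brighter probe (adjusted p = 0.00232), while its other probe differed by 0.40 (adjusted p = 0.0752, limma). Under the drug these probes differed by -0.63 (adjusted p = 0.0283, lost in 7 of 22 alternatives) and -0.030 (adjusted p = 0.932, limma). Ywhaz, a 14-3-3 protein that holds phosphorylated Bad, rose by 0.63 (adjusted p = 0.0011, limma). Stat3 rose by 0.54 by its brighter probe (adjusted p = 0.0105), and its other probe differed by 0.10 (adjusted p = 0.598, limma). Stat5a fell by 1.29 (adjusted p = 0.00022), and Foxo1, an activator of Bcl2l11, did not pass with obstruction (0.30, adjusted p = 0.425) but fell by 0.76 under the drug (adjusted p = 0.0357, limma). This Foxo1 call was lost in 9 of 22 alternatives, among them leaving out any 1 of the 6 arrays compared.

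Of the 7 death receptor genes measured, 3 rose and 0 fell with obstruction, and 0 rose and 3 fell under the drug. With the block these counts were 3 and 2, and 1 and 3. Cflar, the caspase-8 inhibitor FLIP, rose by 1.28 (adjusted p = 0.000359), Tnfrsf1a by 1.25 (adjusted p = 0.00109) and Fas by 0.70 (adjusted p = 0.000448, limma). Under the drug the Fas call (-0.37) was lost in 10 of 22 alternatives, among them leaving out obstruction/vehicle replicate 2 or 3 or any obstruction/Eviprostat replicate. Of the 6 inhibitors of apoptosis 2 rose and 2 fell: the risers were Birc3 at 2.64 (adjusted p = 2.2e-06) and Birc2 at 0.78 (adjusted p = 0.0049, limma). Of 11 apoptosome and caspase genes 2 rose and 1 fell, with Casp12 at 0.57 and Casp6 at -0.60 (adjusted p = 0.0169 and 0.0142, limma). The Casp12 call was lost in 5 of 21 alternatives and the Casp6 call in 4 of 22. Of 7 released factors and channels 1 rose and 1 fell, with the mitochondrial protease Htra2 at 0.59 (adjusted p = 0.0145, limma), a call lost in 5 of 22 alternatives. In obstruction/Eviprostat against obstruction/vehicle these 3 lists held 1 higher and 2 lower, 1 higher and 1 lower, and 0 calls. With the block they held 1 higher and 3 lower, 1 higher and 3 lower, and 2 higher and 2 lower, where Birc2 (-0.33, adjusted p = 0.0232), Casp12 (-0.44, adjusted p = 0.00186) and Htra2 (-0.37, adjusted p = 0.00164, limma) were among the lower ones.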

How the data were processed

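RNA of the rat prostate was hybridised to 12 Agilent 2-colour arrays. Per the file headers, the authors scanned and quantified them with Agilent Feature Extraction 9.5.1.1, and the deposited files hold mean and local background intensity per spot and channel, on a linear scale, and the scanner software's log10 ratio. The deposited value table holds the same log10 ratios (largest difference 0). Here, intensities were corrected with normexp (offset 50). Spots whose mean lay below their own local background in either channel, 0 to 16 of 45018 per array, were left out of that fit. This was decided after the data were seen: with them, the fit on sham/vehicle replicate 1, obstruction/vehicle replicate 2 and obstruction/Eviprostat replicate 1 raised the intensity floor (5% quantile of the mean log2 intensity) to 7.44, 9.32 and 7.27, against 5.94 to 6.31 on the other arrays. Loess within arrays followed (control spots and outliers without weight), and spots of a probe were averaged. Log2 ratios of all 12 arrays were fitted with limma 3.58.1 in R 4.3.3 as 4 group means (8 residual degrees of freedom), with Benjamini-Hochberg adjustment over 36097 kept probes and a threshold of 0.05. A gene with several probes was represented by the brightest. The script was tested on simulated data.

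The members and lists were chosen with earlier results of these data known. All 10 members are named, as are all other BCL2 family genes measured and up to 15 further pathway genes with the smallest adjusted p and a log2 difference of at least 0.5. Replicate numbers pair the arrays, since each number is 1 slide: deviations from group means correlated at 0.389 to 0.815 in 18 same-numbered pairs, against -0.732 to 0.622 in 36 others. Array numbers, 3 per group, limit the precision. Alternatives were the background, normalization, filter, prior, slide block, slides, probes and arrays left out. Some prostate epithelium markers are not reported here by name.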

Additional observations from a re-analysis of the deposited data

Results flagged for a closer look

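The effect of Eviprostat differed between obstructed and sham rats, by limma's test of the difference of the 2 drug effects (obstruction minus sham, log2, adjusted over all probes), for 2 of the 10 members and 10 of the other named pathway genes. Among the members these were Mcl1, at -1.69 ± 0.16 (SE, adjusted p = 1.01e-05) by A_44_P280965 and -1.44 ± 0.18 (adjusted p = 0.000144) by A_44_P101211, and Bbc3 at -1.22 ± 0.33 (adjusted p = 0.0243), which was lost in 6 of 21 alternatives. Of the other BCL2 family genes they were Bcl2a1 at -2.85 (adjusted p = 1.99e-06), Bnip2 at -1.22 (adjusted p = 0.000204) and Bnip3 at -0.91 (adjusted p = 0.0296). The remaining ones were Pim1 at -3.63 (adjusted p = 9.86e-06), Birc3 at -2.32 (adjusted p = 0.000212), Ddit3 at -1.19 (adjusted p = 0.000116), Tnfrsf1a at -1.09 (adjusted p = 0.0309), Cflar at -0.91 (adjusted p = 0.0403), Ywhaz at -0.79 (adjusted p = 0.00366) and Stat3 at -0.61 (adjusted p = 0.0467, limma). All of these differences are below 0. Of all probes 9.72% were called lower and 6.11% higher, and of all genes 12.4% and 5.51%. The named genes from outside the BCL2 family were picked by their obstruction or drug differences, which also enter this test. Their passing and their sign are therefore no separate result. Over the whole list of 59 pathway genes 12 passed below 0 and 1 above 0, Xiap (0.68, adjusted p = 0.00241, limma), which was singled out after its values were seen. Further genes passed above 0 with the slide as a block: Casp6 at 0.61 (adjusted p = 0.00051), Stat5a at 0.58 (adjusted p = 0.00518) and Bcl2l15 at 0.48 (adjusted p = 0.0018, limma), and the members Bcl2 and Bik.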

How the results depend on the processing

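Both Mcl1 probes on 2_random stayed called in obstruction/vehicle against sham/vehicle under all 22 alternatives, as did Bbc3 in obstruction/Eviprostat against obstruction/vehicle. In the main fit some probes had the opposite sign to their gene's brightest probe where that one was called. Bcl2l1 A_43_P12577 gave -0.0041 in obstruction/vehicle against sham/vehicle and 0.019 in obstruction/Eviprostat against obstruction/vehicle. Mcl1 A_44_P384618 gave -0.012, 0.025 and, for the difference of drug effects, 0.16. The Bcl2l1 probe was called in no alternative. This Mcl1 probe was called with the scanner's ratios alone, at -1.09 (adjusted p = 0.0286) in obstruction/vehicle against sham/vehicle and 1.48 (adjusted p = 0.0423, limma) for the difference. The cause was not tested. Over all member probes and comparisons, 1725 values kept their side of the threshold, 51 lost and 57 gained a call. A change of sign between uncalled values counted as kept. An example is Bcl2 A_44_P360756 in obstruction/vehicle against sham/vehicle, at -0.090 as reported and 0.035 with median centring.

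In obstruction/vehicle against sham/vehicle, 7718 probes and 8 member probes were called. The counts were 3041 and 4 with median centring, 4191 and 5 with the background fitted on all spots (an alternative chosen after seeing the data), 14481 probes with the scanner software's ratios, 14073 with the replicate block and 16435 with slides 2 and 3 only. In obstruction/Eviprostat against obstruction/vehicle, 6832 and 6 were called, against 2523 and 2 with median centring, 3536 probes with all spots, 13519 with the scanner's ratios, 13183 with the replicate block, and 15389 and 11 with slides 2 and 3. In sham/Eviprostat against sham/vehicle, 800 and 0 were called, against 167 probes with median centring, 3424 and 1 with the scanner's ratios (Mcl1 A_44_P384618, lower), 3847 with the replicate block, 5952 with slides 2 and 3 and 412 with only these groups. In obstruction/Eviprostat against sham/Eviprostat, 1142 and 0 were called, against 246 probes with median centring, 4279 and 2 with the scanner's ratios, 4987 and 3 with the replicate block, and 7595 and 2 with slides 2 and 3. For the difference of drug effects, 5713 and 3 were called, against 2021 and 1 with median centring, 3126 probes with all spots, 11711 and 8 with the scanner's ratios, 11643 and 10 with the replicate block, and 14054 and 9 with slides 2 and 3.

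Leaving out 1 array gave, in that order of comparisons, 5978 to 8408, 5032 to 7495, 431 to 1227, 556 to 1682 and 4455 to 6315 probes, and 5 to 8, 4 to 7, 0 to 0, 0 to 0 and 2 to 5 member probes. The share of calls that were higher was 59.9%, 38%, 58.5%, 44.1% and 38.6% as reported, 83.9%, 16.2%, 91%, 17.5% and 12% with median centring, and 40.9%, 57.9% and 55.8% with the scanner's ratios in the first, second and last. The replicate block changed no member call in sham/Eviprostat against sham/vehicle. Bid, Bcl2l11, Bcl2l1 A_43_P12577 and Mcl1 A_44_P384618 were not well above background on every array, so their values are the least certain.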
